A study of Mus musculus with 9 samples.

Results

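The cytosolic ribosomal proteins were taken as the protein-coding genes of the deposited count table whose symbol is Rps or Rpl followed by a number, with at most the letter a, l, x or y after it, together with Rplp0, Rplp1, Rplp2 and Rpsa. The pattern matched 81 of 23256 genes, of which 31 encode proteins of the small subunit, 47 proteins of the large subunit and 3 the P stalk, which sits on the large subunit. Expression was measured by RNA sequencing of polyadenylated RNA from submandibular and sublingual salivary glands. All mice were female C57BL/6 animals aged 34 weeks. Control mice (n = 3 libraries) ate chow from 4 weeks of age. Mice with diet-induced obesity (DIO, n = 3 libraries) were given a diet with 60% of its calories as fat from 4 weeks of age for 20 weeks. The group called SG (n = 3 libraries) had been fed like the DIO mice and then had about 80% of the stomach removed along the greater curvature by sleeve gastrectomy at 24 weeks of age, under isoflurane and after a fast of 12 hours. A sham operation, the diet after those 20 weeks and a separate animal for each library are not stated in the labels, so p-values measure the spread between these libraries, which may be technical. By the labels SG differs from DIO by the operation together with its fast and anaesthesia, and a difference in later diet could not be told apart from these.

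A cytosolic ribosome joins a small subunit, which reads the messenger RNA, to a large subunit, which forms the peptide bond, and each ribosomal protein is in general present as a single copy per ribosome. Most mammalian ribosomal protein mRNAs start with a C followed by a run of pyrimidines, the 5′ terminal oligopyrimidine (TOP) tract, through which the mTOR pathway and the protein LARP1 set their translation and stability. Acinar cells of salivary glands make large amounts of secreted protein and hold many ribosomes. Because these are bulk libraries, fewer cells of a type and less RNA per cell cannot be told apart.

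Promoter sequences from RefSeq (build GRCm38.p6, which is not the GRCm39 build that the submitters name) were matched by gene number to 60 of the 81 genes. The promoter of Rps6, which encodes the S6 kinase substrate of the small subunit, is shown first because it holds both features searched here (chr4:86857348-86857617, minus strand, from 250 bases before to 20 bases after the annotated start). The capitals mark CCGGAAG, the core of an ETS-family binding sequence, and then the pyrimidine tract at the start.
Rps6: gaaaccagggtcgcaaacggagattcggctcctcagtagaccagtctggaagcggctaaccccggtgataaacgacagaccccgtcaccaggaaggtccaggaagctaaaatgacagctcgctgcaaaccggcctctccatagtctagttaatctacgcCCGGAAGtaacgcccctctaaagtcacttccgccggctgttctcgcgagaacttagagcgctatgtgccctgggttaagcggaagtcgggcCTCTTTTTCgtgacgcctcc

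Shorter windows, 30 bases before to 20 after an annotated start, are given for genes named in the comparisons, with the tract in capitals. Rpl35a (chr16:33056452-33056501, plus strand, the second of its 3 annotated starts), Rpl14 (chr9:120571487-120571536, plus strand) and Rps27 (chr3:90213629-90213678, minus strand) held a tract at the start, and Rpl15 (chr14:18270967-18271016, minus strand) held the longest, of 13 bases. Rpl5 (chr5:107900498-107900547, plus strand), Rpl10 (chrX:74270786-74270835, plus strand), Rps19 (chr7:24884562-24884611, plus strand, the first of its 3 starts) and Rps27l (chr9:66946056-66946105, plus strand, the first of its 2 starts) are shown as genes with none at the annotated start.
Rpl35a: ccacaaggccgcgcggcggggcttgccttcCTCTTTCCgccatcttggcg
Rpl14: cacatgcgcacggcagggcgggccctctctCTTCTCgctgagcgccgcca
Rps27: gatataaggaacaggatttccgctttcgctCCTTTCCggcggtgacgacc
Rpl15: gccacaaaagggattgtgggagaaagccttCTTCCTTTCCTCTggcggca
Rpl5: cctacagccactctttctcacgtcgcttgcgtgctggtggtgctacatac
Rpl10: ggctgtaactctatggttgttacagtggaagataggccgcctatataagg
Rps19: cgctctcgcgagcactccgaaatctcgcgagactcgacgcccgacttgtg
Rps27l: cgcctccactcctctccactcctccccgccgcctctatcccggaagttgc

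A C followed by at least 4 pyrimidines at an annotated start, read on the transcribed strand only, was found in 14 of the 60 genes (23.3%), against 403 of 13720 protein-coding genes with a promoter in the same table (2.94%). The other motifs were searched on both strands of the 300-base promoters. CCGGAAG was found in 25 genes (41.7%, all promoters 15.9%) and CTCTTTCC, which can overlap the start tract, in 10 (16.7%, all promoters 3.79%). AAGATGGCG was found in 3 (5%, all promoters 2.67%). TATAAA stood in 7 (11.7%, all promoters 10.9%) and GGGCGG in 35 (58.3%, all promoters 60.1%), shares close to those of other genes. A match describes these letters in these windows, and an annotated start can lie away from the base at which transcription begins.

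Nearly all of these genes were abundant in every library. Levels per length are FPKM, the deposited counts scaled by the authors to gene length and library size. The mean over 9 libraries ran from 29.2 to 1337 FPKM among the 78 genes that passed the filter on low counts. Rplp1, an acidic P stalk protein that helps recruit elongation factors, was highest at 1337 FPKM (range over 9 libraries 1157 to 1695), and ranked 23rd of all genes. Rpl41, the smallest ribosomal protein, followed at 1119 FPKM (1025 to 1343). Rpl10, a late-joining protein of the large subunit, stood at 957 FPKM (818 to 1099.8) and Rps14 of the small subunit at 807 FPKM (678 to 1010.4). The ranges of neighbours in this order overlapped. At the low end stood Rpl6l at 29.2 FPKM (24.0 to 34.9), Rps15a at 31.3, Rps27l at 40.6 and Rps20 at 50.9. Rpl6l is listed in RefSeq GRCm38.p6 as a pseudogene, so its reads may be shared with Rpl6, which it resembles. The FPKM of Rps15a rests on an implied gene length of 5136 bases, although its mean of 160.5 CPM (counts brought to a common total after TMM scaling) was higher than the 151.6 CPM of Rps12, whose implied length is 1267 bases.

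**Figure D1:**
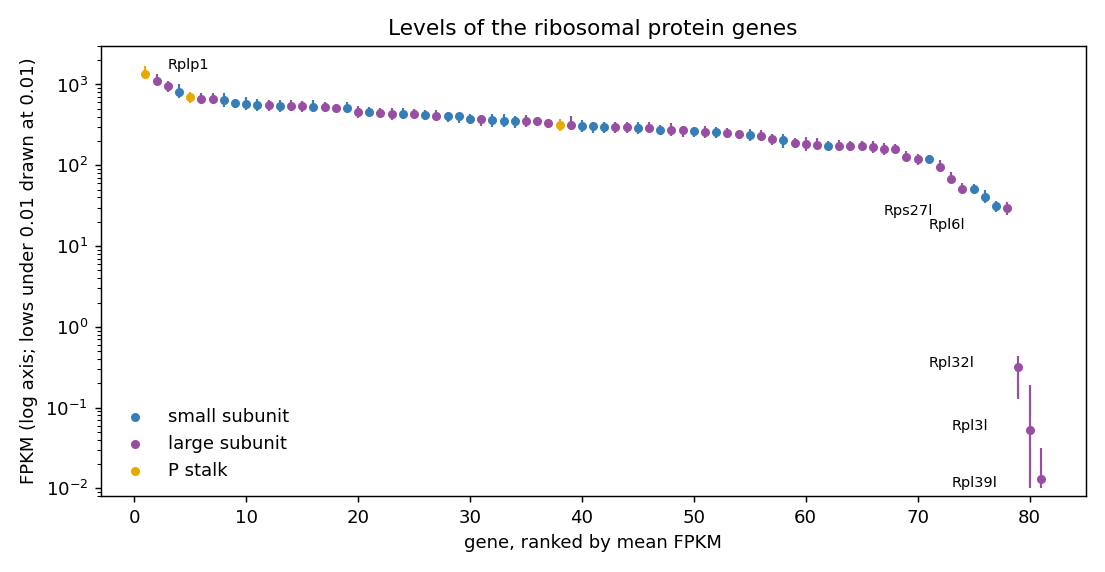
Mean FPKM (log axis) of each of the 81 ribosomal protein genes in rank order, coloured by subunit, with a line from the lowest to the highest of the 9 libraries (values under 0.01 are drawn at 0.01). The 78 genes that passed the filter lie between 29.2 and 1337 FPKM, and Rpl32l, Rpl3l and Rpl39l lie at 0.314, 0.0531 and 0.0130 FPKM.

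The tissue-restricted forms were at or near 0. Rpl3l, the form of Rpl3 found in heart and skeletal muscle, had 1, 1 and 5 counts in control 1 to 3, 1, 4 and 5 in DIO and 4, 13 and 0 in SG. Its highest count came from SG 2, the library in which 8 skeletal muscle markers summed to 39.6 CPM, against 2.77 to 5.14 CPM in the other 8 libraries, and the part of muscle RNA in that count was not tested. Rpl3 itself, the general form, stood at 348 FPKM (310 to 385). Rpl39l, the testis form of Rpl39, had 0 or 1 count in every library, where 3 counts, the floor used for detection, equal 0.0690 to 0.0825 CPM, while Rpl39 stood at 316 FPKM (271 to 402). Rpl32l had 3 to 10 counts. These 3 genes failed the filter and were not tested, and the forms Rpl10l and Rps4l were not analysed here. Rps4x, the X-linked small-subunit protein, stood at 401 FPKM (335 to 449).

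Rps27 and Rps27l encode near-identical small-subunit proteins and were both expressed. Rps27 had 167.8, 189.5 and 175.2 CPM in control, 165.3, 169.4 and 216.3 in DIO and 165.0, 212.6 and 192.2 in SG. Rps27l, a p53 target in other tissues, had 115.7, 92.4 and 120.1 CPM in control, 98.1, 99.8 and 132.9 in DIO and 95.8, 131.5 and 118.2 in SG. The groups overlapped for both genes, and neither differed in any comparison by edgeR's quasi-likelihood test (smallest adjusted p 0.896 for Rps27 and 0.936 for Rps27l).

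As a set, these genes took 2.03%, 2.20% and 2.15% of all counts in control 1 to 3. In DIO the shares were 2.41%, 2.44% and 2.65%, and in SG 2.20%, 2.74% and 2.33%. Group means were 2.13% ± 0.0852 (SD, n = 3) in control, 2.50% ± 0.126 in DIO and 2.42% ± 0.285 in SG. Every DIO library lay above every control library, and SG 1 lay at the level of the highest control library. Large-subunit counts exceeded small-subunit counts by 1.42 to 1.47 times in every library, so the balance of the subunits moved little while the total moved. A share of counts also depends on the most abundant genes, since 43.9% to 52.5% of the counts of a library fell on its 10 highest genes. Without those 10 genes the share was 4.19% ± 0.217 in control, 4.71% ± 0.489 in DIO and 4.75% ± 0.395 in SG, and DIO 1 at 4.30% then lay below control 3 at 4.43%.

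**Figure D2:**
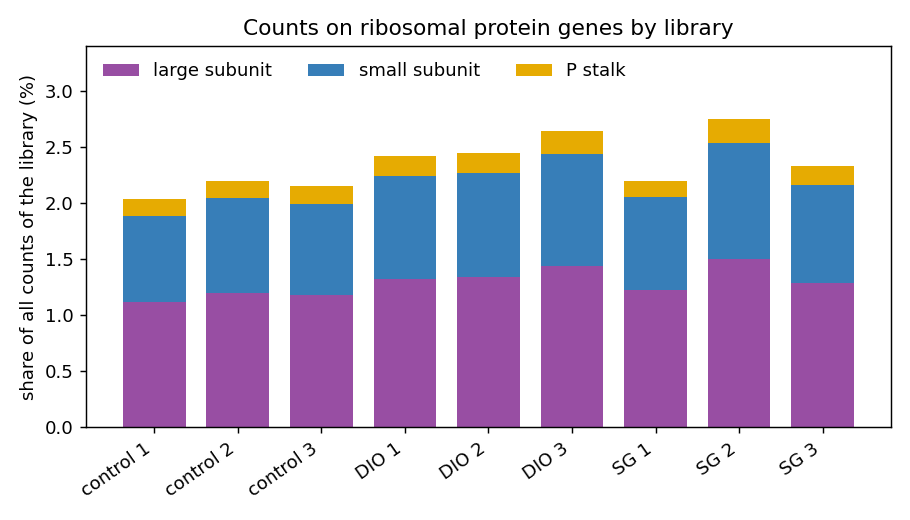
Share of all counts of a library (%, axis from 0) on ribosomal protein genes, stacked as large subunit, small subunit and P stalk, for the 9 libraries. Control libraries span 2.03% to 2.20%, DIO libraries 2.41% to 2.65% and SG libraries 2.20% to 2.74%, and the 3 parts keep nearly the same proportions.

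The remaining values are on the TMM scale, which sets libraries against each other by the bulk of their genes rather than by their totals. On that scale the ribosomal protein genes moved together from library to library. The mean deviation of the 78 genes from their own 9-library means, in log2(CPM + 1), was -0.11, -0.11 and -0.07 in control 1 to 3. It was -0.11, -0.01 and 0.22 in DIO and -0.06, 0.17 and 0.08 in SG. DIO 3 and SG 2 were thus high, DIO 1 lay with the control libraries, and the DIO and control groups overlapped. DIO 3 was the highest library for 63 of the 78 genes, SG 2 for 13 and SG 3 for 2. Within a library the 78 deviations had an SD of 0.04 to 0.08, less than the distance between the high and low libraries. All 78 genes lay above their own mean in DIO 3 and in SG 2, and 0 of 78 did in DIO 1.

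**Figure D3:**
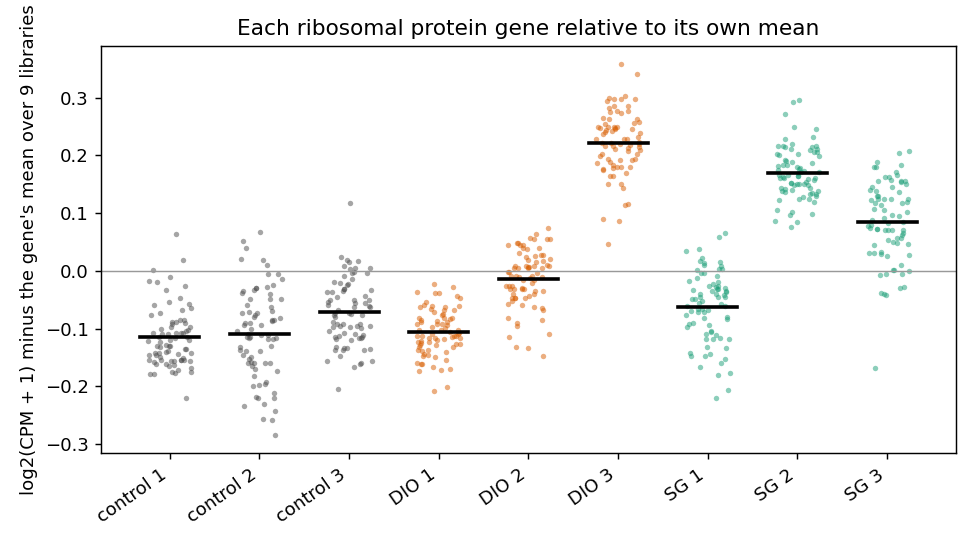
Deviation of each of the 78 tested genes from its own mean over 9 libraries, in log2(CPM + 1), by library (points: genes, black bars: means, colours: groups). All points of DIO 3 and SG 2 lie above 0, and the DIO libraries span from -0.11 to 0.22 in their means.

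The common movement can be described by pairwise correlations over the 9 libraries, whose points share library scaling and depth. The median r between pairs of ribosomal protein genes was 0.86, against 0.07 among 2155 other genes of at least 50 CPM. Of the 78 genes, 74 had r above 0.8 with the mean of the other members. The exceptions were Rps27a, a fusion of ubiquitin with a small-subunit protein (r 0.50), Rpl22 (0.67), Rps27l (0.75) and Rpl36a (0.80, below the bound before rounding). Rps27a had 245.0, 260.1 and 235.5 CPM in control, 228.9, 247.6 and 281.5 in DIO and 251.1, 269.9 and 220.9 in SG. Its lowest value thus came from SG 3, in which 69 of the 78 genes stood above their mean. Rps27a and Rpl36a were named after their values were seen. The size of the variation was ordinary, with a median SD of log2(CPM + 1) of 0.14 for these genes and 0.13 for the other abundant genes. Rps27l and Rplp1 were among the 3 that varied most (SD 0.20 each), and Rpl4 of the large subunit, Rps12 and Rpl22 least (0.09, 0.09 and 0.10).

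Obese glands were compared with control glands to ask what the diet changed. Of the 78 genes, 77 had a higher fitted level in DIO. The median log2 fold change was 0.14 (10.5%), with a range from -0.02 to 0.25, against a median of 0.01 over all 14912 genes tested. None passed the test (0 of 78, smallest adjusted p 0.521, edgeR's quasi-likelihood test with Benjamini-Hochberg adjustment), with 0.0939% of all genes called. At an unadjusted p under 0.05 the count was also 0, where 5.22% of all genes were higher. DESeq2 called 0 of 78 as well, with 1.5% of the genes it tested called, and gave 2 of 78 genes an unadjusted p under 0.05, against 11.6% of all genes it tested. Every DIO library exceeded every control library for 15 of the 78 genes (19.2%), against 8.94% of all genes tested. Because the genes moved together, these 15 are not separate observations. The standard errors, 0.09 to 0.16, were close in size to the fold changes themselves. Without DIO 3 the median was 0.04, with 58 of 78 genes higher, and without DIO 1 it was 0.19.

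By role, the median log2 fold change in DIO was 0.15 for the 31 small-subunit genes, 0.14 for the 44 tested large-subunit genes and 0.15 for the 3 P stalk genes. Rpl5, which with Rpl11 carries 5S rRNA into the large subunit and binds Mdm2, had the smallest p. It had 487.5, 491.1 and 486.6 CPM in control, 517.0, 554.1 and 616.9 in DIO and 557.7, 594.9 and 605.6 in SG. Both DIO and SG lay above control without overlap, the log2 fold change in DIO was 0.20 (SE 0.10), and the adjusted p was 0.521. Its partner Rpl11 had 273.8, 280.0 and 276.6 CPM in control, 248.1, 279.1 and 323.0 in DIO and 274.2, 331.1 and 291.5 in SG. Its groups overlapped, and its log2 fold change was 0.03 (SE 0.12, adjusted p 0.950).

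Rpl9 of the large subunit had 269.0, 250.7 and 278.4 CPM in control and 283.1, 298.3 and 352.0 in DIO, a log2 fold change of 0.23 (SE 0.11, adjusted p 0.525). Rps9 of the small subunit had 298.0, 327.6 and 305.7 CPM in control and 330.3, 347.3 and 389.6 in DIO (0.20, SE 0.10, adjusted p 0.530). In both genes the lowest DIO library lay narrowly above the highest control library. Rps19, the small-subunit protein most often mutated in Diamond-Blackfan anaemia, had the highest fold change at 0.25 (SE 0.12, adjusted p 0.538). It had 165.2, 184.3 and 177.6 CPM in control and 180.5, 200.2 and 244.2 in DIO, so that DIO 1 lay among the controls. Rpl22, an RNA-binding large-subunit protein, was the only gene with a lower fitted level, at -0.02 (SE 0.09, adjusted p 0.976). Its values overlapped, at 152.4, 141.4 and 147.1 CPM in control and 141.8, 138.9 and 155.3 in DIO.

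The P stalk and the best-known regulatory members followed the same pattern of libraries. Rplp0, the stalk's base, had 876.8, 835.8 and 924.0 CPM in control, 847.8, 922.8 and 1151.3 in DIO and 824.1, 1051.6 and 1017.8 in SG. Rplp1 had 615.1, 539.8 and 606.5 CPM in control, 554.2, 603.0 and 794.5 in DIO and 552.1, 759.5 and 603.4 in SG. Rplp2 had 133.0, 137.5 and 137.1 CPM in control, 133.0, 145.0 and 177.9 in DIO and 124.0, 163.8 and 157.8 in SG. In all 3 the groups overlapped, with DIO 3 highest, and the adjusted p was at least 0.721 in each comparison. Rpsa, a small-subunit protein also known as the laminin receptor, had 469.8, 493.7 and 489.4 CPM in control, 479.1, 507.6 and 594.4 in DIO and 474.6, 563.5 and 539.4 in SG, again overlapping. Rps6, whose promoter is shown above, had 372.9, 370.7 and 385.5 CPM in control, 391.6, 428.3 and 486.3 in DIO and 407.2, 455.2 and 475.9 in SG. Its controls lay below all 6 other libraries, with a log2 fold change of 0.21 in DIO (SE 0.11, adjusted p 0.546).

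Operated glands were compared with obese glands to ask what the surgery changed. The ribosomal protein genes differed little, with 54 of 78 higher and 24 lower in SG. Their median log2 fold change was 0.03 (2.41%), with a range from -0.08 to 0.14, against a median of -0.00469 over all genes. By edgeR 0 of 78 genes were called (0% of all genes, smallest adjusted p 0.693), 0 had an unadjusted p under 0.05 (8.93% of all genes, both directions), and by DESeq2 0 were called (0.602% of its genes). SG exceeded DIO in every library for 0 of 78 genes (6.57% of all genes tested). Rpl22 came closest to the threshold, with 152.0, 175.0 and 153.2 CPM in SG and a log2 fold change of 0.14 (SE 0.09, adjusted p 0.693). Rpl6l followed at 0.13 (SE 0.09) and Rpl21 of the large subunit at 0.10 (SE 0.09). On the other side stood Rps29, a small zinc-binding small-subunit protein, at -0.08 (SE 0.11), Rps19 at -0.08 (SE 0.12) and Rps9 at -0.05 (SE 0.10). The direction of the median rested on single libraries, being -0.03 without DIO 1, -0.01 without SG 2 and 0.13 without DIO 3, where 78 of 78 genes were higher. It also rested on the scaling, with -0.04 and 65 of 78 genes lower on library totals, where the median of all genes was itself -0.08.

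Operated glands were last set against control glands, with the same control libraries as the first comparison, so the values of both are not independent. All 78 tested genes had a higher fitted level in SG. The median log2 fold change was 0.17 (12.2%), with a range from 0.00261 to 0.29, against 0.00123 over all genes. Again 0 of 78 passed edgeR's test (0% of all genes, smallest adjusted p 0.540), and DESeq2 called 0 (0.383% of its genes). At an unadjusted p under 0.05 in edgeR there were 7 of 78 genes (8.97%), all higher. Of all genes, 3.47% were higher at that level and 8.1% differed in either direction. The 7 were Rpl6l, Rpl5, Rpl35a, Rpl9, Rpl10, Rps6 and, named after its values were seen, Rpl14. DESeq2 gave 14 of 78 genes (17.9%) an unadjusted p under 0.05, against 8.03% of all genes it tested, in either direction. Every SG library exceeded every control library for 30 of the 78 genes (38.5%), against 6.63% of all genes tested. The genes moved together (median r 0.86), so these 30 are not separate observations. The margin was narrow, with a mean deviation of -0.062 in SG 1, the lowest SG library, and -0.071 in control 3, the highest control library. Without SG 2 the median was 0.11, with 74 of 78 genes higher, and without SG 1 it was 0.23.

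Rpl6l had the smallest p of the last comparison. It had 24.1, 23.4 and 26.9 CPM in control, 25.04, 28.5 and 29.2 in DIO and 28.6, 31.6 and 30.4 in SG, a log2 fold change of 0.28 (SE 0.09, adjusted p 0.540) with no overlap between SG and control. Rpl6, the gene it resembles, had a log2 fold change of 0.21 (SE 0.11, adjusted p 0.653). Rpl5 stood at 0.26 (SE 0.10, adjusted p 0.584). Rpl35a, a large-subunit protein, is like Rps19 mutated in Diamond-Blackfan anaemia. Rpl35a had 189.3, 193.5 and 187.6 CPM in control and 204.7, 241.4 and 230.3 in SG, a log2 fold change of 0.25 (SE 0.10, adjusted p 0.591). Rpl10 had 656.4, 620.4 and 680.0 CPM in control and 713.9, 794.1 and 828.1 in SG, without overlap (0.26, SE 0.11, adjusted p 0.591). Rps27a lay at the low end, at 0.00261 (SE 0.11, adjusted p 0.997).

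**Figure D4:**
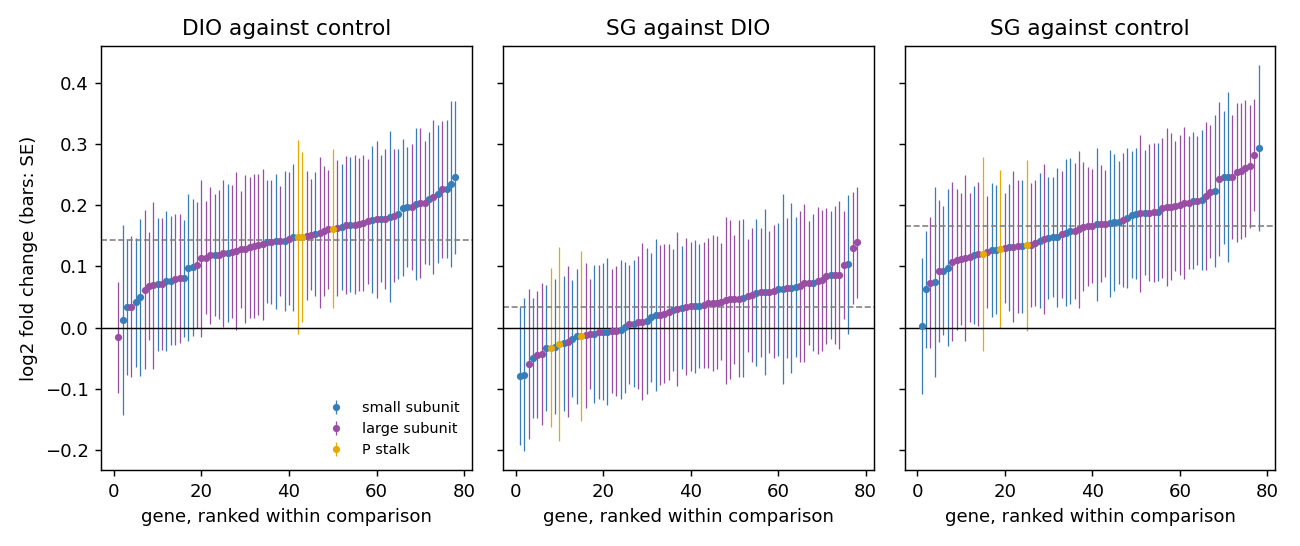
Log2 fold change with its SE for the 78 tested genes, ranked within each of the 3 comparisons and coloured by subunit (dashed line: median, solid line: 0). The left panel has a median of 0.14, the middle panel 0.03 and the right panel 0.17, and the small and large subunits are mixed along the ranking.

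Members with and without a start tract had similar medians. In DIO against control the median log2 fold change was 0.14 for 13 tested genes with a tract and 0.14 for 44 matched genes without. In SG against control it was 0.15 and 0.17, and in SG against DIO 0.03 and 0.03. Genes with CCGGAAG (24 tested) and without (33 tested) had medians of 0.13 and 0.15 in DIO against control. These classes overlapped over most of their range. The tract classes are set by the annotated start, while most ribosomal protein mRNAs carry a TOP tract. Their medians therefore do not compare mRNAs with and without one.

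The genes whose pattern was most like that of the ribosomal proteins were sought among 7635 other genes with a mean of at least 10 CPM, by Pearson r over 9 libraries with the mean of the members. The first was Rack1, itself a protein of the small subunit under another name (r 0.97), with 478.4, 463.4 and 496.8 CPM in control, 494.4, 522.3 and 629.5 in DIO and 480.8, 599.1 and 587.4 in SG. Then came Prdx5, a peroxidase (0.97), Eif3k, a subunit of initiation factor 3 (0.96), and Exd2, an exonuclease (0.96). A list of 6 ribosomal proteins and paralogs that the symbol pattern does not take, among them Fau, Rack1, Rpl22l1, Rpl36al and Rpl7l1, gave 0 of 6 called in each comparison by edgeR. Their median log2 fold changes were 0.11 for DIO over control, 0.04 for SG over DIO and 0.14 for SG over control. Rpl22l1, the paralog of Rpl22, had 60.2 ± 4.09 CPM (SD, n = 3) in control, 55.3 ± 5.62 in DIO and 65.9 ± 8.98 in SG, within the spread of libraries. Rps3a1, a small-subunit protein also outside the pattern and named after its values were seen, had log2 fold changes of 0.21 (SE 0.10, adjusted p 0.500), 0.02 and 0.23 in the same order.

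The shortest other genes moved in the same direction as the ribosomal protein genes. The length that count and FPKM imply is under 1000 bases for 49 of the 78 genes. Among other genes of at least 10 CPM, the 334 with an implied length under 1000 bases had a median log2 fold change of 0.07 in DIO against control and 0.09 in SG against control, against 0.02 and 0.00498 for the 3720 genes of 4000 bases or more. The 1101 genes of 1000 to 2000 bases had 0.00844 and 0.04, and the 2480 of 2000 to 4000 bases had -0.000981 and 0.01. In DIO against control the medians thus did not fall steadily with length. The short genes also had the same high and low libraries, with a median deviation of 0.19 in DIO 3, 0.15 in SG 2 and -0.11 in DIO 1, and -0.10 in control 2, where the ribosomal protein genes had -0.11. In control 1 and 3 the short genes had -0.03 and 0.00335, and the ribosomal protein genes -0.12 and -0.07. Within the members, genes under 1000 bases and the 29 longer ones had medians of 0.15 and 0.14 in DIO against control. The part of gene length or RNA quality in these results was not tested.

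**Figure D5:**
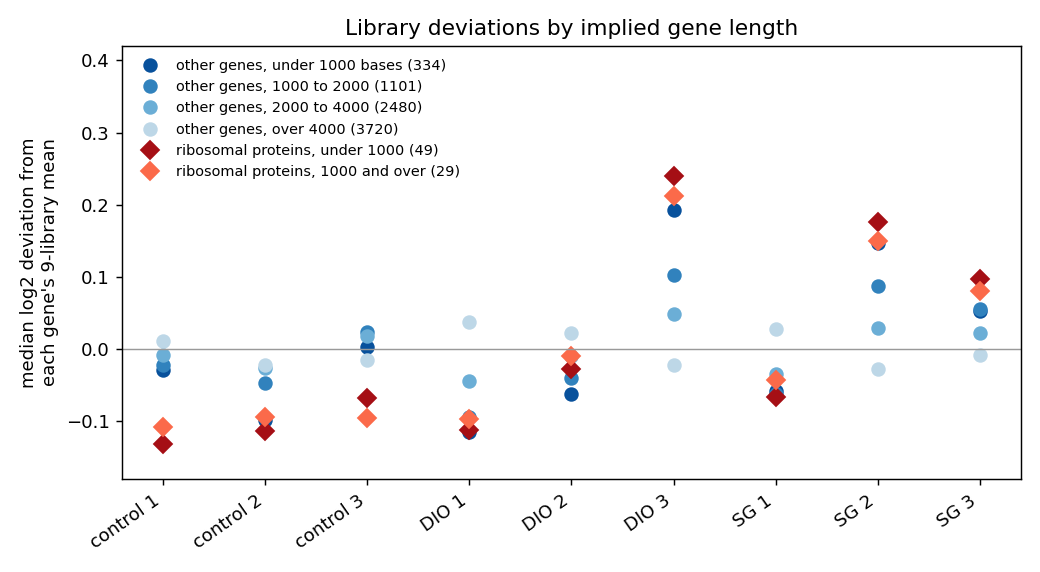
Median log2 deviation from each gene's own 9-library mean, by library, for other genes in 4 classes of implied length (circles) and for the ribosomal protein genes under 1000 bases and of 1000 bases or more (diamonds). In DIO 3 the classes run from -0.02 for other genes of 4000 bases or more to 0.19 for those under 1000 bases, with the ribosomal protein genes at 0.24 and 0.21.

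The rest of the translation machinery was read from lists of named genes, of which 0 genes passed edgeR's test in any comparison. Over all genes tested, an unadjusted p under 0.05 in either direction was found for 10.3% in DIO against control, for 8.93% when SG was set against DIO and for 8.1% when SG was set against control. A higher fitted level was found for 51.7%, 49.0% and 50.3% of all genes in that order, and the counts of each list are to be read against these shares. The 16 other mRNAs known to carry a TOP tract, mostly elongation and initiation factors, had medians of 0.02 for DIO over control (8 higher, 8 lower), 0.11 for SG over DIO (14 higher) and 0.12 for SG over control (15 higher), with 3, 4 and 1 of 16 at an unadjusted p under 0.05. Pabpc1, the poly(A)-binding protein, had the smallest p among them, at 1825 ± 189 CPM in control, 1301 ± 136 in DIO and 1881 ± 248 in SG. Its log2 fold change of -0.49 in DIO (SE 0.14, adjusted p 0.257) was opposite in sign to the ribosomal protein genes, and that of SG against DIO was 0.53 (SE 0.14, adjusted p 0.409). Nap1l1, a histone chaperone, stood at -0.25 in DIO (SE 0.10, adjusted p 0.429), and Naca, which binds nascent chains, at 0.22 in SG against DIO (SE 0.08, adjusted p 0.503). Against control, SG had Eef1g at 0.28 (SE 0.13) and Eef1b2 at 0.21 (SE 0.10), both subunits of elongation factor 1.

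The 23 initiation factors had medians of -0.04, 0.03 and 0.01 for DIO over control, SG over DIO and SG over control, with 1, 0 and 0 at an unadjusted p under 0.05. Eif2s2, the beta subunit of initiation factor 2, stood at -0.35 in DIO (SE 0.11, adjusted p 0.325) and at -0.16 in SG against control, and Eif5 at -0.18 in DIO. Eif4a2 and Eif3c stood at 0.19 and 0.30 in SG against DIO (SE 0.10 and 0.17, adjusted p 0.609 and 0.647), and Eif3k at 0.16 in SG against control. Eif3c had 154.6, 159.6 and 169.5 CPM in DIO and 151.4, 258.1 and 186.0 in SG, so that SG 1 lay below every DIO library. The 46 genes of ribosome biogenesis and rRNA synthesis had medians of -0.04, 0.02 and -0.03 in the same order, with 5, 5 and 3 at an unadjusted p under 0.05. Sbds, which frees the large subunit of Eif6, had 39.4 ± 2.10 CPM in control, 31.8 ± 0.187 in DIO and 38.3 ± 3.09 in SG, a log2 fold change of -0.31 in DIO (SE 0.08, adjusted p 0.233) and 0.27 in SG against DIO (SE 0.08, adjusted p 0.421). Brix1 stood at -0.43 in DIO (SE 0.13), Mdn1 at -0.36 in SG against DIO (SE 0.11), and Gnl3 and Polr1c at -0.36 and 0.19 in SG against control. The fitted level was lower in DIO for 28 of the 46 genes, against 48.3% of all genes tested, and the counts at an unadjusted p were near the shares of all genes.

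Upstream of TOP mRNAs, 21 of 22 measured genes of growth control passed the filter and had medians of 0.05, -0.08 and -0.02 in that same order, with 1, 3 and 1 at an unadjusted p under 0.05. Mlst8, a subunit of the mTOR complexes, had 12.4 ± 1.49 CPM in control, 15.8 ± 0.501 in DIO and 12.5 ± 0.833 in SG, log2 fold changes of 0.35 (SE 0.11, adjusted p 0.296) and -0.34 (SE 0.11, adjusted p 0.451). Rptor, which binds TOR substrates, stood at 0.25 in DIO (SE 0.12), and the mTOR inhibitor Deptor at 0.29 in SG against DIO (SE 0.12) and 0.19 in SG against control. Rps6kb1, the kinase of Rps6, stood at -0.26 in SG against control (SE 0.09, adjusted p 0.576). The 13 p53 targets, which can rise when free Rpl5 and Rpl11 hold Mdm2, had medians of 0.14, -0.09 and -0.03. The fitted level was higher for 10, 5 and 4 of them and lower for 3, 8 and 9. At an unadjusted p under 0.05 there were 3, 2 and 1. Zmat3 stood at 0.27 in DIO (SE 0.08, adjusted p 0.268) and -0.29 in SG against DIO (SE 0.08, adjusted p 0.411), and Eda2r at 0.60 in DIO and 0.64 in SG against control (SE 0.19 each). Btg2 stood at -0.73 in SG against DIO (SE 0.18, adjusted p 0.405) and Bbc3 at 0.38 in SG against control (SE 0.23).

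The 82 mitochondrial ribosomal proteins, which belong to a separate ribosome, had medians of 0.01, 0.07 and 0.06, with 46, 57 and 60 genes higher and 5, 5 and 2 at an unadjusted p under 0.05, the latter below the shares of all genes. In the 2 comparisons with control their medians lay below those of the cytosolic genes. Mrpl41 and Mrps15 stood at -0.35 and -0.24 in DIO (adjusted p 0.310 and 0.373), Mrps18c and Mrps15 at 0.26 and 0.24 in SG against DIO, and Mrpl21 and Mrpl23 at 0.30 and 0.32 in SG against control. Their summed level was highest in SG 2 at 1734 CPM and in DIO 3 at 1664 CPM, the same 2 libraries in which the cytosolic genes stood highest, and lowest in DIO 1 at 1407 CPM.

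Markers of the labelled glands were present in all libraries, with 8 serous and seromucous acinar markers summing to 73541 to 118326 CPM, 8 granular duct markers to 22061 to 38529 CPM and 4 mucous acinar markers to 1238 to 2674 CPM. Among the cell-type lists, the 8 parotid markers had the largest median difference in DIO against control, but not in the other comparisons. All 8 had a lower fitted level in DIO than in control, 6 of them at an unadjusted p under 0.05. Their median log2 fold change was -4.49, with a range from -5.57 to -0.24. The summed level of the parotid markers fell much less than this median, as abundant markers weigh most in a sum. The DIO libraries held 42505 to 56571 CPM of them, below the 64615 to 83426 CPM of the control libraries. Sums of the SG libraries, from 52712 to 67079 CPM, overlapped those of both other groups. In SG all 8 were lower than in control as well, 2 of them at an unadjusted p under 0.05. The median was then -2.43, with a range from -3.13 to -0.04. By edgeR 0 of the 8 markers were called. Their mean deviation in log2(CPM + 1) was 1.48, 3.02 and 0.33 in control 1 to 3, -0.34, -1.88 and -0.75 in DIO and 1.37, -2.03 and -1.18 in SG. In SG against DIO 8 of 8 were higher, with a median of 1.90. Granular duct markers were higher in 7 of 8 cases in both DIO and SG against control (medians 0.41 and 0.61, with 3 and 4 at an unadjusted p under 0.05). Their mean deviations were 0.11, -0.69 and -0.27 in control 1 to 3, 0.22, -0.10 and 0.31 in DIO and 0.06, 0.56 and -0.20 in SG. The 4 mucous markers were lower in 4 of 4 cases in both comparisons with control (medians -0.46 and -0.35, with 2 and 0 at that level). Their mean deviations were 0.14, 0.52 and 0.06 in control, -0.03, -0.18 and -0.37 in DIO and 0.16, -0.31 and 0.01 in SG. The 8 serous markers had medians of -0.07 and 0.13, with mean deviations of 0.03 in DIO 3 and -0.04 in SG 2. Over the 9 libraries the duct, mucous and serous deviations had r of 0.54, -0.78 and 0.06 with the mean of the ribosomal protein genes. Control 2 held the highest sums of markers of B cells and lymph node (169.7 CPM, against 4.67 to 44.9 elsewhere), T cells (68.4 CPM, against 2.86 to 32.5), adipocytes (177.3 CPM, against 23.6 to 54.9) and dividing cells (128.7 CPM, against 6.99 to 24.0). Without control 2 the median log2 fold change of the ribosomal protein genes was 0.11 in DIO against control, with 73 of 78 higher, and 0.16 in SG against control, with 77 of 78 higher. Red blood cell markers summed to 400.8 CPM in SG 2, 251.8 in SG 3 and 126.6 in DIO 1, against 43.1 to 86.6 CPM in the other libraries, and plasma cell markers to 735 to 965 CPM in all. In SG against DIO, 10 of 10 markers of B cells and lymph node and 7 of 7 T cell markers were lower. Their medians were -2.51 and -2.10, with 3 and 4 at an unadjusted p under 0.05. In SG against control, B cell and lymph node markers had a median of -3.33 and adipocyte markers -2.77, with 8 and 5 at that level. Both medians were larger in size than that of the parotid markers. Dividing cell markers were lower in 8 of 8 cases in both DIO and SG against control. Their medians were -1.69 and -2.31, with 5 and 8 at that level. All 5 red blood cell markers were higher in SG than in DIO and control, at that level in both. By edgeR 0 genes of these lists were called. No marker gene in these lists was at 0 in every library. The part of other cell types in the results was not tested.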

How the data were processed

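Per the labels' protocols, polyA libraries were made from TRIzol RNA with a VAHTS Universal V6 kit. HISAT2, Salmon and GRCm39 are named in the submitters' processing notes. For their roles and versions, the strand setting and multi-mapping reads, nothing was given in the sources used here, so reads of ribosomal pseudogenes and retrocopies (11 such rows held 0.174% to 0.203% of the members' counts) may be split or shared. The authors deposited whole-number counts per gene and an FPKM table of the same genes. Libraries held 36349885 to 43495564 counts, and floors cover counting error only.

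Counts were tested with edgeR 4.0.16 (R 4.3.3), TMM scaling, its filter by group and the quasi-likelihood F test in 1 fit of 9 libraries, with Benjamini-Hochberg adjustment over 14912 genes and a threshold of 0.05. CPM use TMM-scaled totals, and logs of levels add a pseudocount of 1. The method was tested on simulated data whose genes varied independently and whose changes were all larger than the members' fold changes. That test does not measure detection of changes as small as those of the members. Alternatives were DESeq2 1.42.0, other scalings, no filter, only the groups compared, a replicate block and leaving out each library.

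The members and all lists (translation, ribosome biogenesis, growth control, p53, mitochondrial ribosomes, cell types) were chosen with earlier results of these data known. Named genes were, per comparison, called members or else, on each side, the 3 of smallest p, the 4 highest and lowest by FPKM, the 3 most and least variable, a fixed panel of paralog pairs, stalk and regulatory genes, the 5 most similar other genes, and per list the 2 with the smallest p. Some genes that this rule names are not reported here. The length classes were added after seeing the data.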

Additional observations from a re-analysis of the deposited data

How the results depend on the processing

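The number of ribosomal protein genes called stayed at 0 in each of the 3 comparisons under all 16 alternatives. The median log2 fold change stayed above 0 under all of them in DIO against control (leaving out 1 library: 0.04 to 0.19, other settings: 0.12 to 0.23) and in SG against control (0.11 to 0.23 and 0.15 to 0.18). In SG against DIO it crossed 0 (-0.03 to 0.13 and -0.04 to 0.05). Library totals in place of TMM moved the median of all genes in DIO against control to 0.10, so that the members' 0.23 lay 0.13 above it, and 35 of 78 genes (44.9%) then had an unadjusted p under 0.05, against 12.3% of all genes. With the replicate block the medians were 0.14, 0.04 and 0.16 in DIO against control, SG against DIO and SG against control, with 0 called in each, and unadjusted p under 0.05 in 2, 0 and 9 genes (2.56%, 0% and 11.5%, against 11.3%, 9.999% and 8.27% of all genes). Libraries of the same number correlated in their deviations from group means at -0.09 to 0.31, and those of different numbers at -0.32 to 0.25. The labels do not say what the number marks, so it was not taken to pair libraries. Leaving out 1 library put the DIO to control ratio of the summed share at 1.14 to 1.196, SG to DIO at 0.905 to 1.01 and SG to control at 1.06 to 1.19. Among named genes, Rpl22 in DIO against control turned to 0.0771 with library totals and 0.0118 without control 1 (range -0.0660 to 0.0118 when leaving out 1 library). In SG against DIO, Rps29 turned to 0.00797 without DIO 3 and 0.0146 without SG 1 (range -0.144 to 0.0146), Rps19 to 0.0535 without DIO 3 and 0.00794 without SG 1 (-0.1600 to 0.0535), and Rps9 to 0.0213 without DIO 3 (-0.0901 to 0.0213). The cause of these turns was not tested. With 3 libraries a group and standard errors of 0.09 to 0.16, differences of the size of the medians were not detectable gene by gene.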
